A study of Mus musculus with 8 samples.

Results

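Spp1, Trem2 and Gpnmb are 3 of the 2000 genes in a pooled single-cell expression table of Hepa1-6 tumours, and they were followed through 6 gated cell classes, per macrophage, and against the macrophage genes Arg1 and Cxcl9. The genes were chosen by name and all 3 were found in the table. They are often listed together as markers of tumour and lipid-laden macrophages. In these tumours Spp1 and Gpnmb were not limited to macrophages. In the cell set where UMIs (unique molecular identifiers, 1 per captured transcript) could be counted, Spp1 stood at 172 UMIs per 1000000 UMIs (CPM) in macrophages and 169 CPM in hepatoma cells, the tumour cells themselves. Gpnmb stood at 100.2 CPM in macrophages and 119.96 CPM in hepatoma cells. The hepatoma cells, the most numerous and deepest class, held 88.5% of all UMIs of that set, 87.2% of its Spp1 UMIs and 93.4% of its Gpnmb UMIs. Trem2 stood 124-fold higher per UMI in macrophages than in hepatoma cells. Hepa1-6 is a mouse hepatoma cell line. The labels give 4 groups, tumours of unedited cells (labelled WT) or of Soat1-edited cells, each from animals injected intraperitoneally with PBS or with a PD1 antibody, and each group has an entry for cDNA and another for oligo reads. The edit is called a knockout in the titles and a knockdown in the genotype field. The strain and age of the animals, the number of edited clones and any pooling of animals are not given in the sources used here.

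Spp1 encodes osteopontin, a secreted phosphoprotein that binds integrins and CD44 and is made by macrophages and by many epithelial tumours. Trem2 encodes a surface receptor of macrophages and microglia that senses lipids and lipoproteins and signals through the adaptor Tyrobp. Gpnmb encodes a transmembrane glycoprotein of lysosomes and melanosomes that appears in macrophages loaded with lipid or debris. Arg1 encodes arginase and Cxcl9 an interferon-gamma-induced chemokine that draws T cells, and these genes are commonly used to set apart macrophage states.

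The promoters are shown because the level of all 3 genes in set 1 was higher in macrophages with UMIs of Arg1 only than in those with UMIs of Cxcl9 only. Each is the RefSeq sequence on GRCm38.p6 of 250 bases before to 50 bases after an annotated start, written 5′ to 3′ on the plus strand, which is the strand of all 3 genes. The Gpnmb promoter lies at chr6:49036268-49036567, the Trem2 promoter at chr17:48346151-48346450 and the promoter of the first annotated Spp1 start at chr5:104434861-104435160. Capitals mark matches, searched on both strands, to TGANTCA (the core that AP-1 factors bind), GAGGAA (the core that PU.1 binds), ACGTG (the core of the hypoxia response element) and TATAAA.
Gpnmb promoter: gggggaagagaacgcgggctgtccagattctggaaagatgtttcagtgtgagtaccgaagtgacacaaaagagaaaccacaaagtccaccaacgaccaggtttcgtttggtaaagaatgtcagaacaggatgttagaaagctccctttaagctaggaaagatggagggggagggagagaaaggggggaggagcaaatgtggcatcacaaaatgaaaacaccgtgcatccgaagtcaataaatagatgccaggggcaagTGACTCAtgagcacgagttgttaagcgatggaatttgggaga
Trem2 promoter: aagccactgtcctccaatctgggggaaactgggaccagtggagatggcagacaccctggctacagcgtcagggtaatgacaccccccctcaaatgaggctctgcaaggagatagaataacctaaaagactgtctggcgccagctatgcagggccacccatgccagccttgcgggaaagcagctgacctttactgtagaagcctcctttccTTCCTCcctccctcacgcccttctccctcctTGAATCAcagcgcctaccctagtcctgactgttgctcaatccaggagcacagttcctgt
Spp1 promoter, first start: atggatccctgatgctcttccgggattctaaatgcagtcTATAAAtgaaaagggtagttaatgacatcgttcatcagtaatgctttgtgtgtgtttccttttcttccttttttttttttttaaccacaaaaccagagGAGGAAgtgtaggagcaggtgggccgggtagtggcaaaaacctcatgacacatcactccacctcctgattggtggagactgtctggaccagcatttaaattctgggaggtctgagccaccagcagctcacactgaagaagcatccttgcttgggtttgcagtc
The Gpnmb promoter held TGACTCA with its first base at +9 from the start. The Trem2 promoter held TGAATCA at -9, which meets only the looser pattern, and, on the minus strand, GAGGAA at -40, printed as TTCCTC. The first Spp1 promoter held GAGGAA at -113 and TATAAA at -211. A second annotated Spp1 start, at chr5:104435942-104436241, held no match to these 4 motifs, and ACGTG was in none of the windows. Among 32851 mouse promoter windows of the same length, 7.81% held TGANTCA, 28.3% held GAGGAA, 19.6% held ACGTG and 13.6% held TATAAA. A match describes the letters of the window and is not evidence of binding.

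The table holds 53528 cells in 6 sets of 7569 to 11813 cells, marked by the last number of the cell name. No source used here ties a set to a tumour group, so the sets are unassigned samples, no genotype or treatment was compared and no p-value was computed. Of 22421 cell name stems, 12741 occurred in more than 1 set, but these stems are running numbers and not barcode sequences. UMIs were recovered exactly in set 1 (9370 cells, 1001 to 261833 UMIs per cell), and the other sets are given on the deposited natural log scale. Cells were gated by marker genes that include none of Spp1, Trem2, Gpnmb, Arg1 and Cxcl9, and 46901 cells (87.6%) passed exactly 1 gate. These were 3726 C1q macrophages (552 in set 1 after doublet removal), 788 monocytes (73), 382 neutrophils (63), 470 dendritic cells (47), 776 fibroblasts (71) and 28019 hepatoma cells (6107). The C1q gate was passed by 4739 cells, of which 646 also passed the hepatoma gate and 232 the monocyte gate. Such cells were left out of the class. T cells (12184, 1216 in set 1) served as a reference class that should lack Trem2 and Gpnmb, whereas activated T cells can make osteopontin. The 10 genes highest by fold in the C1q macrophages held the gate genes C1qa, C1qb and C1qc, and also Aif1 and Ctsc, which are in no gate. Each of the other classes also had at least 2 of its own markers there. The gates select for their own markers, so their presence there does not test the class names. Gates are ranges: 384 cells lay within 20% of the C1q threshold and 6222 within 20% of the hepatoma threshold. These counts take both sides of the threshold, so some of the cells are outside the class, and leave out cells that passed another gate. Median depth in set 1 was 2640 UMIs in C1q macrophages, 2794 in monocytes, 1196 in neutrophils, 3305 in dendritic cells, 6826 in fibroblasts, 18435 in hepatoma cells and 4860.5 in T cells. Hepatoma RNA was found in every class that the results compare: Afp, the hepatoma's fetal albumin, stood at 5162 CPM in hepatoma cells, 721 CPM in C1q macrophages and 469 CPM in T cells.

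Trem2, the lipid-sensing receptor, was found in C1q macrophages and monocytes and was at or near 0 elsewhere. In set 1 the C1q macrophages had 44 Trem2 UMIs, 21.9 CPM (95% Poisson interval 15.9 to 29.5), and the monocytes had 10, 42.7 CPM (20.5 to 78.5). All intervals here cover counting error only. The monocyte value was 26.5 CPM without the cell with most Trem2 UMIs, and the ratio of macrophages to monocytes was 0.51 (0.26 to 1.15), so the order of these classes was not resolved. The 6107 hepatoma cells held 26 Trem2 UMIs, each in a different cell, or 0.177 CPM (0.116 to 0.260). The T cells held 1 Trem2 UMI in 1216 cells. The ratio of macrophages to hepatoma cells was 124 (74.5 to 209) and that of macrophages to T cells 175 (29.7 to 7050). No Trem2 UMI was seen in 71 fibroblasts, 47 dendritic cells or 63 neutrophils. Against a floor of 3 UMIs over the class, macrophages were at least 4.43-fold higher than fibroblasts and at least 1.61-fold higher than dendritic cells. The exact intervals of these ratios, which count the 0 as observed, begin lower, at 3.46 and 1.25. For neutrophils that floor is 30.1 CPM, above the macrophage level, so a difference was not detectable at this depth.

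Trem2 was sparse even where it was found. A Trem2 UMI was seen in 31 of the 552 macrophages (5.62%, Clopper-Pearson interval 3.85 to 7.88%), against 0.0822% of T cells and 0.426% of the deeper hepatoma cells. With each cell thinned to 1000 UMIs, 1.99% of macrophages, 4.11% of monocytes, 0.0327% of hepatoma cells and no T cell had a Trem2 UMI. The macrophage with most Trem2 UMIs held 6 of the 44. Of all 118 Trem2 UMIs of set 1, 37.3% lay in C1q macrophages, 8.47% in monocytes, 22.0% in hepatoma cells, which were 65.8% of the cells, and 31.4% in cells that passed no gate or several.

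The same pattern stood in each of the 6 sets. Mean deposited Trem2 values in C1q macrophages had a lowest of 0.0807, a median of 0.0916 and a highest of 0.112, and those in monocytes 0.0938, 0.118 and 0.155. Macrophages were higher than monocytes in 2 sets and lower in 4, with overlapping ranges. In the hepatoma cells the 6 means lay between -0.00075 and 0.00430, and in T cells between -0.00031 and 0.00452. The macrophage range lay wholly above the ranges of hepatoma cells, T cells, fibroblasts, neutrophils and dendritic cells. That separation from hepatoma cells was seen for 18.4% of all 2000 genes, and that from T cells for 24.6%. The shares of all genes against fibroblasts, neutrophils and dendritic cells are not given here.

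**Figure D1:**
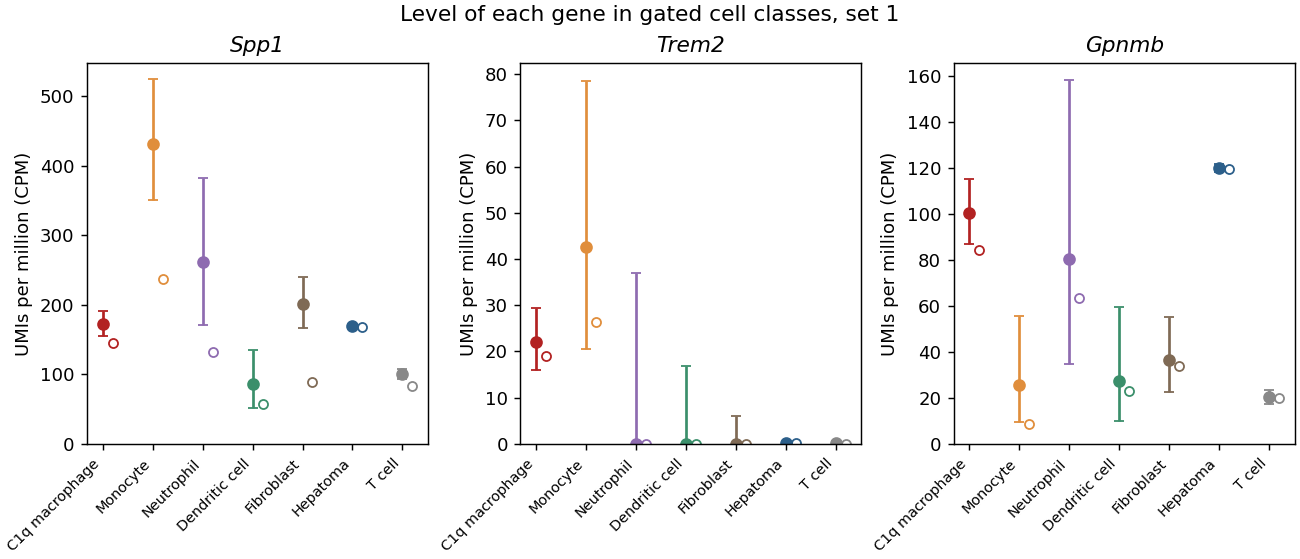
Level of Spp1, Trem2 and Gpnmb (y axis, CPM, linear) in 7 gated classes of set 1 (x axis). Filled points are the class level with its exact 95% Poisson interval, and open points are the level without the cell holding most UMIs of that gene. Trem2 is highest in monocytes (42.7 CPM) and C1q macrophages (21.9 CPM) and stands at 0.177 CPM in hepatoma cells. Gpnmb is highest in hepatoma cells (119.96 CPM) and C1q macrophages (100.2 CPM).

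Spp1, the secreted ligand, was present in every class, and its level in C1q macrophages was not resolved from that in hepatoma cells. The macrophages of set 1 held 345 Spp1 UMIs, 172 CPM (154 to 191), and the hepatoma cells 24783, 169 CPM (167 to 171), a ratio of 1.02 (0.91 to 1.13). This ratio had no stable direction: its log2 value of 0.03 became -0.63 with a stricter gate, 0.53 when cells passing a second gate were kept, -0.37 at 1000 UMIs per cell and -0.22 without the macrophage with most Spp1 UMIs. T cells stood at 99.8 CPM (93.0 to 107), and the macrophage level was 1.72-fold higher (1.51 to 1.96). The T cell level of Spp1 is not a blank, since 133 and 42 of the 794 UMIs lay in the top cells, 13 cells held 43.3% of them and 83.3 CPM remained without the top cell. For each 100 Afp UMIs, macrophages held 23.9 Spp1 UMIs (21.2 to 26.9) and T cells 21.3 (19.7 to 23.0), whereas hepatoma cells held 3.27. The part of hepatoma RNA in the macrophage level of Spp1 was not tested.

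The remaining classes rested on few cells for Spp1. Monocytes stood at 431 CPM, but 46 of their 101 UMIs were in 1 cell and 237 CPM remained without it. Fibroblasts stood at 201 CPM with 69 of 122 UMIs in 1 cell, and at 88.4 CPM without it. Neutrophils stood at 261 CPM with 13 of 26 UMIs in 1 cell, and at 132 CPM without it. Dendritic cells stood at 86.5 CPM (52.1 to 135), an interval that contains that of the T cells. In C1q macrophages the spread was also wide, with 55 UMIs in 1 cell, 42.6% of the Spp1 UMIs in 6 cells and no UMI in most cells. A Spp1 UMI was seen in 22.8% of macrophages (19.4 to 26.6%) and in 23.1% of the deeper T cells. At 1000 UMIs per cell the shares were 9.42% (7.12 to 12.2%) and 5.67% (4.44 to 7.13%), and that of hepatoma cells was 13.5% (12.6 to 14.4%).

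On the deposited log scale, which averages over cells and so gives less weight to a few cells with many UMIs, hepatoma cells stood first for Spp1 in all 6 sets. Their mean values had a lowest of 0.627, a median of 0.658 and a highest of 0.826. The C1q macrophages had 0.294, 0.402 and 0.488, the monocytes 0.354, 0.432 and 0.535, and the T cells 0.260, 0.278 and 0.293. The macrophage range lay below that of hepatoma cells, as for 45.5% of all genes, and above that of T cells, as for 24.6%. Monocytes were also higher than T cells in all 6 sets, whereas macrophages and monocytes changed order between sets. Fibroblasts ran from -0.0505 to 0.430 and neutrophils from 0.154 to 0.588, overlapping the macrophages. Dendritic cells, with a median of 0.258, were above T cells in 2 sets and below them in 4. Such log means also run lower in shallow cells at an equal CPM. Median depth in set 1 was 2640 UMIs in macrophages and 18435 in hepatoma cells. There the Spp1 means were 0.381 in macrophages and 0.634 in hepatoma cells, although the levels were 172 and 169 CPM. The part of depth in the lead of the hepatoma cells was not tested.

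Gpnmb, the lysosomal glycoprotein, was highest in hepatoma cells and C1q macrophages. The hepatoma cells of set 1 stood at 119.96 CPM (118 to 122; 17588 UMIs) and the macrophages at 100.2 CPM (86.9 to 115; 201 UMIs), a macrophage to hepatoma ratio of 0.84 (0.72 to 0.96). On the log2 scale this was -0.26, and -0.80 with a stricter gate. T cells stood at 20.2 CPM (17.2 to 23.6), so macrophages were 4.95-fold higher (4.01 to 6.13). For each 100 Afp UMIs, macrophages held 13.9 Gpnmb UMIs (11.9 to 16.1), T cells 4.31 (3.66 to 5.05) and hepatoma cells 2.32. Macrophages were 3.92-fold higher than monocytes (1.77 to 10.8), 3.67-fold higher than dendritic cells (1.66 to 10.1) and 2.76-fold higher than fibroblasts (1.78 to 4.51). Neutrophils held 8 Gpnmb UMIs in 7 cells, 80.2 CPM (34.6 to 158), which overlapped the macrophage interval.

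Gpnmb UMIs were spread more evenly over hepatoma cells than Spp1 UMIs were. The top 10% of hepatoma cells by UMIs of the gene held 48.6% of the Gpnmb UMIs and 65.8% of the Spp1 UMIs. At 1000 UMIs per cell, Gpnmb was seen in 11.4% of hepatoma cells, 6.70% of macrophages (4.76 to 9.12%) and 2.80% of T cells (1.94 to 3.89%). Of the 3 genes, only Trem2 was at least 2-fold higher in macrophages than in hepatoma cells, as were 24% of 1909 genes tested, and none was at least 2-fold lower, as were 30.4%.

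Across the 6 sets the Gpnmb means of hepatoma cells had a lowest of 0.619, a median of 0.648 and a highest of 0.731, above every other class in every set. The C1q macrophages had 0.197, 0.280 and 0.436 and the fibroblasts 0.228, 0.348 and 0.402, with macrophages higher in 2 sets and lower in 4. Monocytes had 0.00255, 0.0814 and 0.154, dendritic cells 0.0901, 0.123 and 0.161, and T cells 0.0593, 0.106 and 0.130. The macrophage range lay wholly above the ranges of these 3 classes, which for T cells was seen for 24.6% of all 2000 genes. It lay below that of hepatoma cells, as for 45.5%. The shares of all genes against monocytes and dendritic cells are not given here. Monocytes were higher than T cells in 3 sets and lower in 3. In set 1, where fibroblasts stood at 36.3 CPM, a Gpnmb UMI was seen in 25.4% of them and in 2.82% after thinning to 1000 UMIs. As for Spp1, depth enters the log means. In set 1 the Gpnmb means were 0.264 in macrophages and 0.619 in hepatoma cells, at levels of 100.2 and 119.96 CPM. The part of depth in the lead of the hepatoma cells was not tested.

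**Figure D2:**
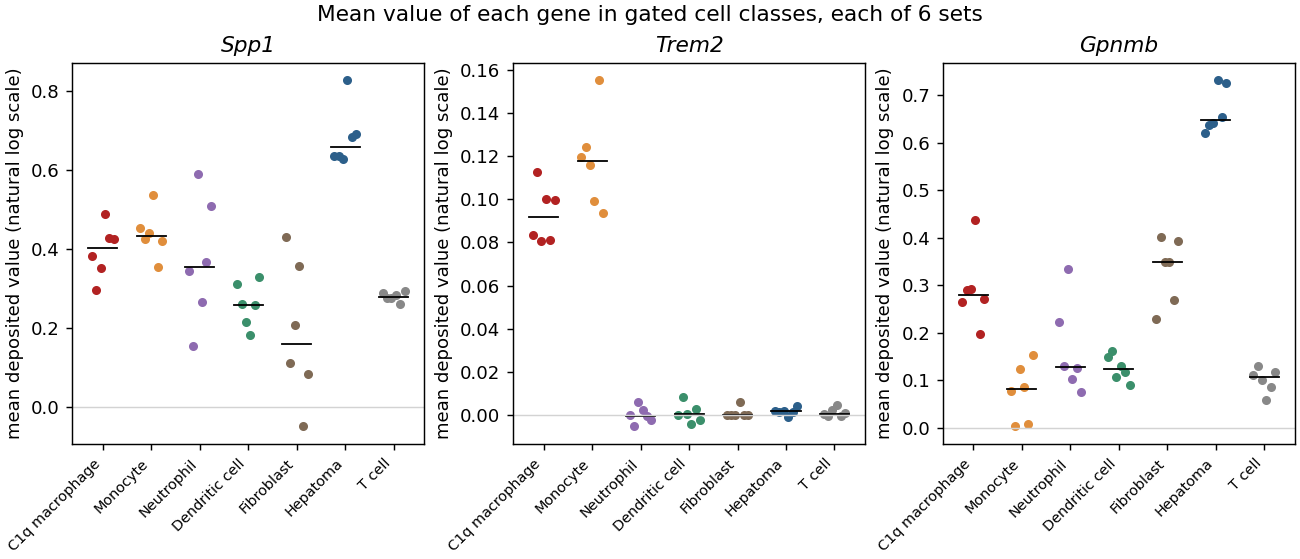
Mean deposited value (y axis, natural log scale) of each gene in 7 gated classes (x axis). Each point is 1 of the 6 sets, set 1 at the left of each class, and the black line is the median of the sets. Hepatoma cells lie above all other classes for Spp1 (0.627 to 0.826) and Gpnmb (0.619 to 0.731), and only C1q macrophages and monocytes lie clear of 0 for Trem2. Hepatoma cells were also the deepest class of set 1, and the part of depth in these means was not tested.

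Within the C1q macrophages of set 1, Spp1 and Gpnmb were found in the same cells more often than their separate shares give. At 1000 UMIs per cell, Spp1 was seen in 52 macrophages, Gpnmb in 37 and both genes in 9, against 3.49 if the genes were independent, a ratio of 2.58 (1.18 to 4.87). Gpnmb was seen in 17.3% of macrophages with Spp1 (8.23 to 30.3%) and in 5.60% of those without (3.75 to 7.99%). Trem2 was seen in 11 macrophages at that depth, too few to resolve its pairs: 1 cell held Trem2 with Spp1 against 1.04 expected, and 2 cells held Trem2 with Gpnmb against 0.737. Without thinning, where deep cells carry more of every gene, the ratios were 1.79 (1.28 to 2.43) for Spp1 with Gpnmb, 1.55 (0.78 to 2.76) for Spp1 with Trem2 and 2.30 (1.19 to 3.98) for Trem2 with Gpnmb. In hepatoma cells the Spp1 and Gpnmb ratio was 1.31 (1.09 to 1.56) at 1000 UMIs, an interval that overlaps that of the macrophages, and 1.11 (1.04 to 1.18) in 5664 cells thinned to 5000 UMIs.

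Unthinned, 356 of 552 macrophages had a UMI of none of the 3 genes, 149 of 1 gene, 40 of 2 genes and 7 of all 3. Arg1 was seen in 18.0% of the cells with none, 31.5% with 1 gene, 47.5% with 2 and 71.4% with all 3. Their median depths were 2150, 3118, 5516 and 8053 UMIs, so that depth moved with this count, and its part in the Arg1 shares was not tested. Cxcl9 was seen in 55.3%, 51.7%, 50% and 14.3%, the last being 1 of 7 cells.

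On the deposited scale of each set the pairs were weak. The Pearson correlation of deposited values over macrophages ran from 0.0378 to 0.279 (median 0.139) for Spp1 with Gpnmb, from -0.0425 to 0.184 (median 0.141) for Spp1 with Trem2, and from -0.0238 to 0.207 (median 0.0975) for Trem2 with Gpnmb, over 433 to 811 cells per set. These cells share a library and differ in depth, and such weak values in sparse data are given as a description.

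At 1000 UMIs per cell in set 1, Arg1 was seen in a larger share of macrophages that held Spp1 or Gpnmb, and Cxcl9 in a smaller share of those that held Gpnmb. Arg1 was seen in 48.6% of Gpnmb-bearing macrophages (31.9 to 65.6%) and 13.6% of the rest (10.8 to 16.9%). For Spp1 the Arg1 shares were 36.5% (23.6 to 51.0%) and 13.8% (10.9 to 17.1%). The observed over expected ratios with Arg1 were 3.05 for Gpnmb and 2.29 for Spp1 at this depth. On the deposited scale of the 6 sets, without thinning, they ran from 1.18 to 1.88 (median 1.29) for Gpnmb. For Spp1 they ran from 1.16 to 2.11 (median 1.51). Cxcl9 was seen in 5.41% of Gpnmb-bearing macrophages (0.661 to 18.2%) against 40.0% of the rest (35.7 to 44.4%), and in none of the 11 Trem2-bearing ones (0 to 28.5%) against 38.4% of the rest (34.3 to 42.7%). For Spp1 the Cxcl9 shares overlapped, at 23.1% (12.5 to 36.8%) and 39.2% (34.9 to 43.6%). Without thinning the Cxcl9 shares of macrophages with and without Gpnmb overlapped, at 44.1% (33.8 to 54.8%) and 55.3% (50.7 to 59.9%), and those with and without Trem2 were 22.6% (9.59 to 41.1%) and 55.3% (50.9 to 59.6%). The observed over expected ratio of Gpnmb with Cxcl9 was thus 0.14 thinned and 0.82 unthinned, and it lay between 0.808 and 0.978 over the 6 sets on the deposited scale. Arg1 and Cxcl9 themselves were seen together in 17 macrophages against 33.2 expected, a ratio of 0.51 (0.30 to 0.81).

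Macrophages of set 1 were then split by UMIs of Arg1 and Cxcl9: 81 had Arg1 only (median 2299 UMIs), 241 had Cxcl9 only (3356), 54 had both (4031) and 176 had neither (1832). Spp1 stood at 697 CPM (598 to 808) in Arg1-only cells, 207 (156 to 269) with both, 112 (83.1 to 148) with neither and 61.2 (47.1 to 78.1) in Cxcl9-only cells. Gpnmb stood at 392 CPM (319 to 478), 118 (80.9 to 167), 77.9 (54.0 to 109) and 34.4 (24.1 to 47.7). In both genes the Arg1-only interval stood clear of the rest. The order of cells with both and with neither was not resolved for Gpnmb: 14 of the 32 UMIs with both lay in 1 cell, and without the top cell the levels were 67.9 and 69.4 CPM. On the deposited scale, cells with neither were also above those with both for Gpnmb in sets 5 and 6.

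The Arg1-only to Cxcl9-only ratio was 11.4 for Spp1 (8.51 to 15.4; 176 and 64 UMIs) and 11.4 for Gpnmb (7.71 to 17.2; 99 and 36 UMIs). The top Arg1-only cell for each gene held 55 of the Spp1 UMIs and 33 of the Gpnmb UMIs, and without it the levels were 495 and 269 CPM. The log2 ratio of 3.51 for Spp1 became 2.54 when all Arg1-positive were set against all Arg1-negative macrophages and 1.84 when all Cxcl9-negative were set against all Cxcl9-positive ones. For Gpnmb, also 3.51, these were 2.41 and 1.90, and 5.33 at 1000 UMIs per cell.

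In set 1 Trem2 stood at 71.3 CPM (42.3 to 113; 18 UMIs in 10 cells) in Arg1-only cells, 43.6 CPM (26.2 to 68.0; 19 UMIs in 14 cells) with neither gene and 6.69 CPM (2.69 to 13.8; 7 UMIs) in Cxcl9-only cells, and no UMI was seen in the 54 cells with both, where 3 UMIs would be 11.1 CPM. That 0 was seen in set 1 only: in sets 2 to 6 the mean deposited value was 0.0947 to 0.135 with both genes and 0.0772 to 0.131 with neither. The ratio of Arg1-only to Cxcl9-only cells was 10.7 (4.25 to 30.2), but that of Arg1-only cells to those with neither gene was 1.64 (0.81 to 3.30), against 6.21 (4.50 to 8.70) for Spp1 and 5.03 (3.38 to 7.67) for Gpnmb. Cells with neither gene stood 6.51-fold above Cxcl9-only cells for Trem2 (2.62 to 18.3). The Trem2 log2 ratio of 3.41 was 1.25 with a stricter C1q gate and 0.97 for all Arg1-positive against all Arg1-negative cells.

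**Figure D3:**
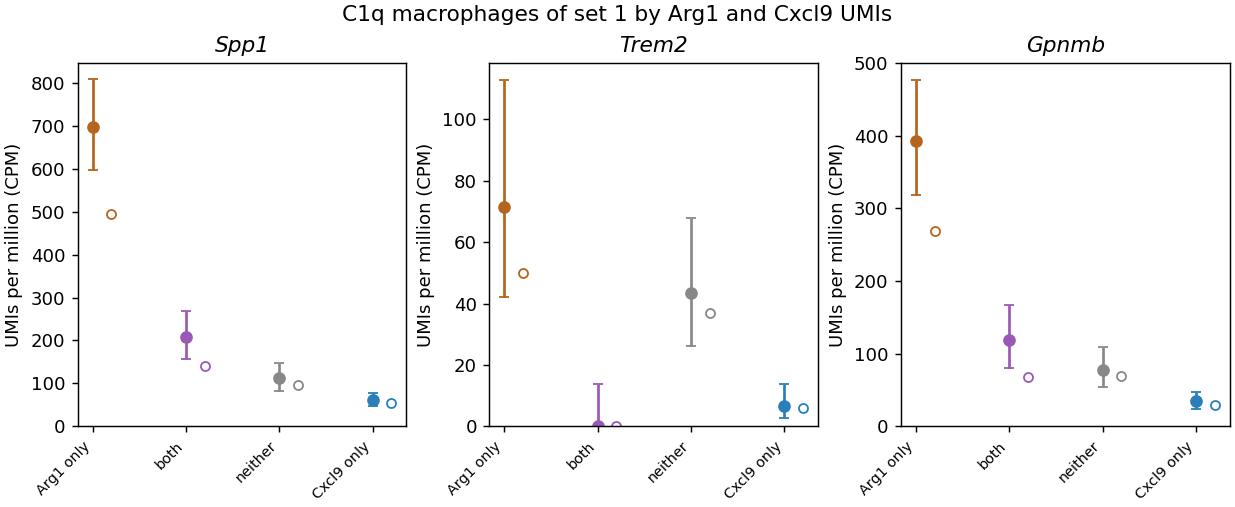
Level (y axis, CPM, linear) of each gene in C1q macrophages of set 1 with UMIs of Arg1 only (81 cells), both Arg1 and Cxcl9 (54), neither (176) or Cxcl9 only (241). Filled points carry exact 95% Poisson intervals and open points leave out the cell with most UMIs of the gene. Spp1 and Gpnmb stand highest in Arg1-only cells (697 and 392 CPM), and Trem2 also in cells with neither gene (43.6 CPM).

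All 3 genes were at least 2-fold higher in the Arg1-only cells, where 14.2% of 945 genes with at least 10 UMIs were, and 17.4% were at least 2-fold lower. With a pseudocount of 1 CPM they ranked 10 (Spp1), 13 (Gpnmb) and 15 (Trem2) of 945, and the median log2 ratio of all genes was -0.03. Hepatoma RNA moved less between the states: Afp stood at 769 CPM (664 to 885) in Arg1-only and 664 CPM (615 to 715) in Cxcl9-only cells, and the 12 hepatoma markers together at 4243 and 3517 CPM, with Apoa2 at 0 in the former. Monocyte markers stood at 321 and 187 CPM in sum, with 4 of 7 seen in Arg1-only and 6 of 7 in Cxcl9-only cells, and the 3 C1q genes at 6054 and 8409 CPM. F13a1, a coagulation factor gene of monocytes and some macrophages, made up most of that sum in Arg1-only cells, at 238 against 10.5 CPM (60 and 11 UMIs). Ly6c2 and Vcan were among the markers at 0 in the Arg1-only cells. A floor of 3 UMIs was 11.9 CPM in Arg1-only and 2.87 CPM in Cxcl9-only cells, and Apoa2 stood at 11.5 CPM in the latter. The markers at 0 and the counts of markers seen therefore do not resolve a difference between the states. The part of these marker RNAs in the ratios was not tested.

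In the 6 sets, with a gene called present above a deposited value of 0.5, the Spp1 mean of Arg1-only macrophages had a lowest of 0.447, a median of 0.766 and a highest of 0.913, and that of Cxcl9-only macrophages 0.218, 0.265 and 0.350. Gpnmb had 0.333, 0.584 and 0.698 against 0.109, 0.197 and 0.306. The Arg1-only cells were higher in 6 of 6 sets for each gene, as were those of 6.35% of all 2000 genes. The ranges did not overlap for either gene, and the share of all genes with ranges apart is not given here. By the share of cells above 0.5, Spp1 did not differ in set 2, at 22.6% in Arg1-only and 22.7% in Cxcl9-only cells. In the other sets that share was higher in Arg1-only cells, and for Gpnmb it was higher in every set. The difference ran from 0.192 to 0.662 for Spp1 and from 0.191 to 0.564 for Gpnmb. Trem2 had 0.105, 0.175 and 0.185 in Arg1-only and 0.0337, 0.0473 and 0.120 in Cxcl9-only cells. It was higher in the Arg1-only cells in 5 sets, and 14% of all 2000 genes were higher in 5 or 6. In set 4 the values were 0.105 and 0.120, while the share of cells above 0.5 was 15.0% in Arg1-only and 11.6% in Cxcl9-only cells. Arg1-only cells were 9.99% to 27.0% of the macrophages of a set, highest in set 4, and Cxcl9-only cells 28.2% to 51.7%, lowest in set 4.

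**Figure D4:**
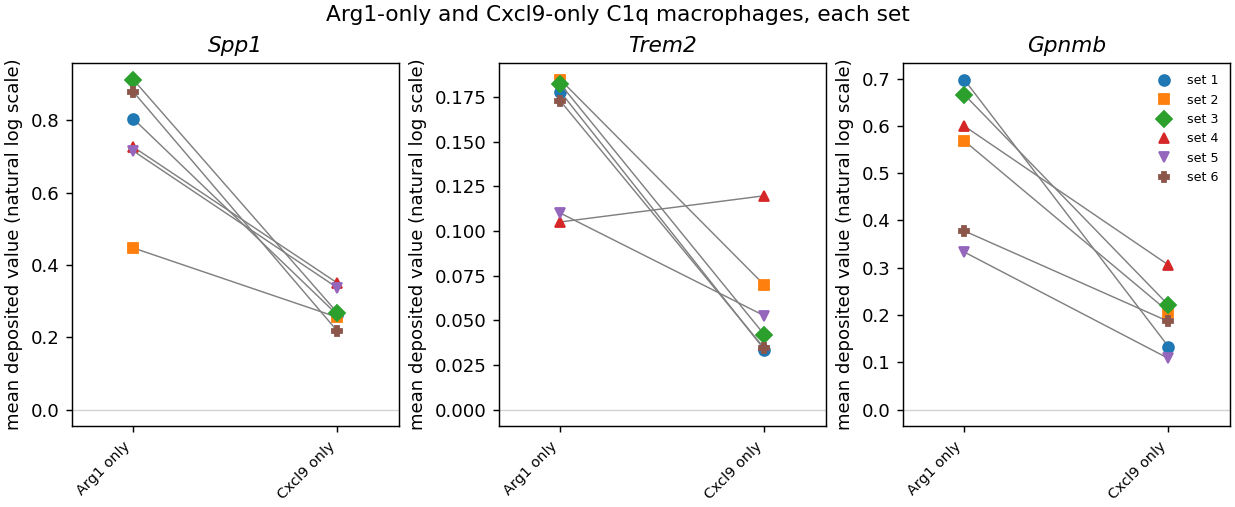
Mean deposited value (y axis, natural log scale) of each gene in Arg1-only and Cxcl9-only C1q macrophages, with a line joining the values of 1 set. Spp1 and Gpnmb are higher in Arg1-only cells in all 6 sets, and Trem2 in 5, the exception being set 4 (0.105 and 0.120).

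The genes around these 3 were read in the same Arg1-only to Cxcl9-only comparison, by lists whose counts stand against the 14.2% higher and 17.4% lower of all genes. Of 10 integrins and CD44 listed as osteopontin receptors, only Itga4 was in the table, and its level was lower in Arg1-only cells at 31.7 against 108 CPM, a ratio of 0.29 (0.12 to 0.60). Itga4, a lymphocyte and monocyte integrin chain, stood at 255 CPM in T cells. Of 5 TREM2 partners and ligands in the table none was past 2-fold, with a median log2 ratio of 0.34. Tyrobp, the signalling adaptor of TREM2, stood at 305 and 342 CPM, a ratio of 0.89 (0.69 to 1.14), and Apoe, a lipoprotein ligand, at 2607 and 1629 CPM, a ratio of 1.60 (1.46 to 1.75). The membrane proteins Ms4a6d and Ms4a7 had ratios of 1.40 (1.06 to 1.84) and 1.26 (0.95 to 1.66).

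Of 5 counted lysosomal genes, 2 were at least 2-fold higher in Arg1-only cells: Atp6v0d2, a proton pump subunit, at 238 against 47.8 CPM (ratio 4.97, 3.36 to 7.39), and the protease gene Ctsl at 1617 against 471 CPM (3.43, 3.00 to 3.92). Ctsb had a ratio of 1.45 (1.34 to 1.56) and Cd63 of 1.22 (1.06 to 1.41). Of 6 lipid-associated macrophage genes 5 were at least 2-fold higher, with a list median of 1.26 on the log2 scale. The elastase Mmp12 stood at 10234 against 2545 CPM (4.02, 3.81 to 4.25), the fatty acid binding protein gene Fabp4 at 35.7 against 4.78 CPM (7.46, 2.24 to 28.3), Apoc1 at 83.2 against 32.5 CPM (2.56, 1.41 to 4.54), and Fabp5 at 2286 against 994 CPM (2.30, 2.07 to 2.55). Itgax, which encodes the integrin CD11c, went the other way at 238 against 517 CPM (0.46, 0.35 to 0.60).

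Of 9 hypoxia genes, 8 were at least 2-fold higher in Arg1-only cells, with a median log2 ratio of 1.77. Adm, a vasodilator peptide gene, stood at 135 against 8.60 CPM (15.7, 7.35 to 37.1), the haem oxygenase gene Hmox1 at 2421 against 365 CPM (6.63, 5.82 to 7.55), Vegfa at 238 against 52.6 CPM (4.52, 3.08 to 6.64) and the lipid droplet gene Hilpda at 614 against 146 CPM (4.20, 3.34 to 5.28). Of 17 counted interferon-gamma response genes none was at least 2-fold higher and 11 were at least 2-fold lower, with a median log2 ratio of -1.42. The guanylate binding protein gene Gbp2b stood at 19.8 against 215 CPM (0.092, 0.030 to 0.218), the chemokine gene Cxcl10 at 174 against 1495 CPM (0.117, 0.084 to 0.157), Serpina3g at 27.7 against 215 CPM (0.129, 0.051 to 0.270) and Gbp5 at 27.7 against 162 CPM (0.172, 0.068 to 0.361). Of the 2 counted phenotype genes neither was past 2-fold: the mannose receptor gene Mrc1 had a ratio of 1.44 (1.17 to 1.77) and Vcam1 of 0.52 (0.45 to 0.59).

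**Figure D5:**
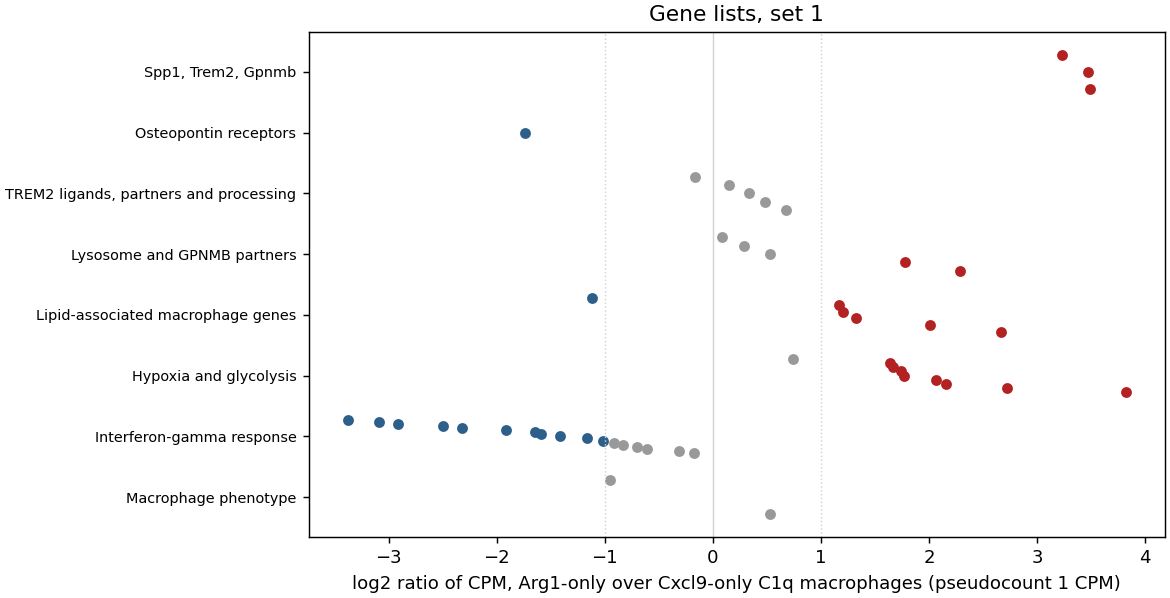
Log2 ratio of CPM in Arg1-only over Cxcl9-only C1q macrophages of set 1 (x axis, pseudocount 1 CPM) for each counted gene of 7 lists and for Spp1, Trem2 and Gpnmb (rows). Red points are at least 2-fold higher, blue points at least 2-fold lower, and dotted lines mark those folds. The 3 genes lie above 3, 8 of 9 hypoxia genes lie past 2-fold on the same side, and 11 of 17 interferon-gamma response genes on the other.

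Over the 8 classes of set 1 with at least 20 cells, the genes most like Trem2 by Pearson correlation of log2(CPM + 1) were C3ar1 (0.99), Msr1 (0.98), Pf4 (0.97), Arg1 (0.97) and Nos2 (0.97). C3ar1 encodes a complement receptor, Msr1 a scavenger receptor of macrophages and Pf4 a chemokine. The genes most like Gpnmb were Bnip3 (0.93), Klf5 (0.92), Sgk1 (0.92), Slc40a1 (0.92) and Angptl8 (0.92). Those most like Spp1, led by Cma1 and S1pr5 (both 0.91), followed by 4930515B02Rik, Khdc1a and Klrb1f, rested on 1 NK cell with 426 Spp1 UMIs; without it they were Slpi (0.82), Irgm1, Tom1, Smox and Fcgr3 (0.79). With 8 points that share cells, depth and gating, these values are a description.

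Over the 552 macrophages at 1000 UMIs, the genes most like Spp1 were Gpnmb (0.298), Arg1 (0.297), Ctsl (0.284), Ccl6 (0.245) and Hmox1 (0.208). The genes most like Gpnmb were Spp1 (0.298), Pf4 (0.279), Ctsl (0.262), Arg1 (0.227) and Esd (0.222). For Trem2 they were Emilin2 (0.175), Cd300ld (0.159), Retnla (0.158), Ccl6 (0.157) and Sfxn1 (0.141), of which Ccl6 was also on the Spp1 list. The median correlation over the 421 or 422 genes compared was between -0.0088 and -0.0058. The 99th percentiles were 0.202 for Spp1, 0.222 for Gpnmb and 0.140 for Trem2. Arg1 and the protease gene Ctsl were on the lists of Spp1 and Gpnmb and not on that of Trem2. The Trem2 list rests on 11 macrophages with a Trem2 UMI, too few to resolve this difference. Without thinning, where deep cells carry more of every gene, the correlation with Arg1 was 0.384 for Spp1, 0.313 for Gpnmb and 0.202 for Trem2.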

How the data were processed

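Dissociated tumour cells were profiled by droplet 3′ single-cell RNA sequencing (DNBelab C4), per the labels' protocols. The series' design text names STAR 2.7.2b, PISA and barcodeRanks of DropletUtils with GRCh38, while the submitters' processing notes also name mm10, so the build behind the table is unclear. The authors deposited natural log values. In set 1 each was the natural log of 1 plus UMIs per 10000 UMIs of the cell, and 100% of nonzero values gave whole UMI counts (tolerance 0.01). In sets 2 to 6 the authors' values also run below 0, after a step not given in the sources used here, and their depth is unknown. The table held no column of another kind (0 unused columns).

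Computed here (Python 3.11.15, numpy 2.4.6, scipy 1.17.1, scanpy 1.11.5): a cell entered a class when the mean deposited value of the class markers reached a threshold (1.25 for C1qa, C1qb and C1qc, 1.25 for hepatoma markers, 0.5 to 1 for the other classes) and no other of 12 gates was passed. Thbs1 and Ly6d were left out as markers because over 50% of set 1 cells had a UMI. Scrublet marked 84 doublets (0.896%) in set 1, which were removed there; doublets were not called in the other sets. UMIs were summed per class. Levels carry exact Poisson, shares Clopper-Pearson and ratios of levels conditional Poisson intervals at 95%, all for counting error only. Observed over expected ratios carry the Clopper-Pearson interval of the share with both genes, divided by the expected share. The expected share is taken as fixed, so the error of the single shares is left out. Cells were thinned to 1000 UMIs (5000 for hepatoma cells, which 5664 of 6107 reached), and no cell was shallower than 1000. The procedures were tested on simulated data. The 3 genes and all lists were chosen with earlier results of these data known. Named genes were the 3 members, the 5 most alike per member (over classes, and over macrophages among genes seen in at least 5% of them) and, of each list, the 4 furthest from 0, with the stated others; some items are not reported here. Alternatives were stricter (1.5 times) and looser (0.7 times) gates, no exclusion, doublets kept, thinning, means over cells, other splits by Arg1 and Cxcl9, 2 UMIs as positive and a pseudocount of 10 CPM.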

Additional observations from a re-analysis of the deposited data

Results flagged for a closer look

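Of 17 series of 6 set values, 1 had a set far from the others: the mean deposited Spp1 value of hepatoma cells was 0.826 in set 4, whereas the next highest was 0.691 and the lowest 0.627. The gap was 0.680 of the whole range. Chance flags about 1 in 20 such series. Set 4 also had the highest Spp1 mean in C1q macrophages (0.488), the highest Gpnmb means in macrophages (0.436) and hepatoma cells (0.731), and the fewest hepatoma cells (2575). Which tumour group set 4 belongs to is not given in the sources used here.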

How the results depend on the processing

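The macrophage to hepatoma log2 ratio of Spp1 (0.03) had no stable direction, at -0.63 with the stricter gate, 0.53 without exclusion, -0.37 at 1000 UMIs, -0.12 as a mean over cells and -0.22 without the top macrophage. That of Trem2 (6.95) was 6.17 at 1000 UMIs. That of Gpnmb (-0.26) was -0.80 with the stricter gate, -0.47 at 1000 UMIs and -0.51 without the top macrophage. The observed over expected ratio of Spp1 with Trem2 (0.97) was 0 with the stricter gate. Without thinning, that of Gpnmb with Cxcl9 (0.14) was 0.82, that of Spp1 with Cxcl9 (0.61) was 1.07 and that of Gpnmb with Arg1 (3.05) was 1.80. The Arg1-only to Cxcl9-only log2 ratio of Spp1 (3.51) was 2.54 by Arg1 alone, 1.84 by Cxcl9 alone, 2.96 with the stricter gate and 3.02 without the top cell. That of Trem2 (3.41) was 0.97 by Arg1 alone and 1.25 with the stricter gate, and at 1000 UMIs it gave no value because no Cxcl9-only cell kept a Trem2 UMI. That of Gpnmb (3.51) was 2.41 by Arg1 alone, 1.90 by Cxcl9 alone and 5.33 at 1000 UMIs. By Cxcl9 alone the median difference over the sets was 0.131 for Spp1 (0.460 as reported) and 0.120 for Gpnmb (0.327). The cause was not tested. The other 65 of 86 alternative values of these results stayed within the interval or set range of the reported value or, for shares above 0.5, kept its sign, and no called direction was reversed. Of 126 class levels under alternatives, 26 left their interval. The alternatives without the top cell and with doublets kept for the states were chosen after seeing the data. No paired analysis was possible because the cell sets are not tied to the labelled samples. Trem2 and the neutrophil, dendritic and monocyte classes are limited by depth, with 118 Trem2 UMIs in set 1.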

Other observations

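In hepatoma cells, which held most UMIs of Spp1 and Gpnmb, different genes varied with each gene. Over 5664 hepatoma cells of set 1 thinned to 5000 UMIs, the genes with the highest Pearson correlations with Spp1 included the protease gene Ctsl (0.344), the growth factor binding protein gene Igfbp3 (0.300), the growth factor gene Areg (0.233) and Rnf128 (0.218). For Gpnmb they were the hypoxia genes Ndrg1 (0.247) and Bnip3 (0.235), then Igfbp1 (0.229), Pgk1 (0.200) and Hilpda (0.193). The medians over 729 genes were -0.0241 and -0.0189. No gene was on both lists, and Ctsl was also among the 5 most like Spp1 in macrophages. These cells share a library, the comparison was added after seeing the data, and the values are a description.

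Among 31 NK cells of set 1, 1 cell held 426 of the 449 Spp1 UMIs. The class stood at 4128 CPM with it and at 240 CPM (152 to 361) without it. That cell was not marked as a doublet.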
